A study of Mus musculus with 6 samples.

Results

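The genes described here build the sarcomere, the contractile unit of striated muscle, together with its Z-disc, its M-band and the factors that assemble it. They were the rows of the expression matrix whose symbol stood on a list of 49 genes of sarcomere structure and assembly, which leaves out the myosin heavy chains and the troponins. All 49 were found among the 14515 genes of the matrix, and all 49 passed the filter on low values (10 or more scaled counts in 2 libraries), the fast myosin-binding protein Mybpc2 only through both mdx libraries. They fall into 10 thin filament genes, 8 genes of the thick filament and titin, 5 of the M-band, 16 of the Z-disc, 3 of the intermediate filament and its chaperone, and 7 of assembly and turnover. RNA came from mouse muscle stem cells in 6 libraries, 2 for each genotype label: wild type (wt), muscular dystrophy (mdx), and mdx/Ripk3mKO. The mdx mouse lacks dystrophin and is the usual model of Duchenne muscular dystrophy. Ripk3 encodes a kinase that drives necroptosis, a regulated form of necrosis, and the labels neither spell out mKO nor say what drives it. The labels give no strain, age or number of animals. The sample labels call the cells quiescent satellite cells, sorted by FACS, with 10000 to 20000 cells a library. The series text instead describes activated wild-type cells taken 72 hours after the start of a transwell culture, with wt, mdx or mdx/Ripk3mKO cells in the upper well. Under that text the genotype belongs to the cells in the upper well, so groups are written below as labelled. Whether libraries under one label stem from different mice or dishes is unstated, so p-values reflect only library-to-library spread, possibly technical. Both mdx columns carry the same header, and their numbers 1 and 2 are names only.

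A sarcomere runs from one Z-disc to the next. Thin filaments of actin are anchored in the Z-disc by alpha-actinin and capped by tropomodulin at their free ends. Thick filaments of myosin are crosslinked at the M-band by myomesins, and titin spans from Z-disc to M-band as a spring and a ruler. In the muscle lineage these genes are switched on when myoblasts leave the cell cycle and fuse, under the MyoD family, MEF2 and serum response factor, and resting satellite cells hold little of their RNA.

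Values are read counts that had been scaled between libraries and rounded before deposit, called scaled counts below. Their totals lay between 20611974 and 21037153 a library, and the 49 genes took 2.35% to 2.96% of them. Scaling hides the depth. Divisors estimated from the spacing of low values were 0.87 to 0.95 for the libraries labelled wt and mdx, and 1.2 for both of those labelled mdx/Ripk3mKO, the deepest. The label of quiescent cells is set here beside markers of each cell type, from lists chosen with earlier results of these data known. Myogenin (Myog), which marks cells committed to differentiation, stood between 26795 and 35263 scaled counts, and Pax7, the defining factor of satellite cells, between 1755 and 2119. The whole list of 5 stem cell and myoblast genes, which includes Pax7, summed to 44928 to 51745. A list of 4 genes of proliferating cells summed to 31625 to 36905. Markers of several other cells were low. The sum over 3 endothelial genes was 26 to 41 and over 4 fibroblast genes 294 to 554. Cd68, the 1 of 4 macrophage and leukocyte genes measured, stood at 15 to 31. The 1 of 3 Schwann cell genes measured stood at 28 to 42. The 2 of 3 tenocyte (tendon cell) genes measured were not as low and summed to 1423 to 1653. The smooth muscle list summed to 39042 to 54587, nearly all of it Acta2 (35974 to 51960), an actin that myoblasts also express. Other genes of that list moved with the sarcomere genes, as given beside them below. In bulk RNA, fewer differentiating cells and less of these transcripts per cell cannot be told apart. Library 1 labelled mdx/Ripk3mKO stood apart in Xist (6918 scaled counts against 164 to 666 in the others) and in the Y-linked Ddx3y (373 against 1543 to 1785), and the comparisons of mdx/Ripk3mKO are also given without each of its libraries.

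The start regions of 5 members are shown because they carry matches to motifs of muscle transcription factors. Acta1 and Actc1 are the members with the highest level per kilobase, and Ckm, Myoz2 and Xirp2 were picked with their values known. Each run is the 300 bases from 250 before to 50 after a RefSeq start (build GRCm38.p6), 5′ to 3′ on the gene's strand, at chr8:123894726-123895025 (minus strand), chr2:114052826-114053125 (minus strand), chr7:19410844-19411143 (plus strand), chr3:123034938-123035237 (minus strand) and chr2:67445752-67446051 (plus strand). Capitals mark matches on either strand to the E-box CAGCTG, a core bound by MyoD and myogenin, to the MEF2 motif and to the CArG box of serum response factor.
Acta1: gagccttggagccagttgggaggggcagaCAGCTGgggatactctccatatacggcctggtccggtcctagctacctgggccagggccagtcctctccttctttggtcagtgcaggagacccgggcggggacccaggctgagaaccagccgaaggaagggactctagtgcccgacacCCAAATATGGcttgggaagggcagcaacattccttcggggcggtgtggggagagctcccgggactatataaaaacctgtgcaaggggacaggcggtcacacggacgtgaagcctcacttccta
Actc1: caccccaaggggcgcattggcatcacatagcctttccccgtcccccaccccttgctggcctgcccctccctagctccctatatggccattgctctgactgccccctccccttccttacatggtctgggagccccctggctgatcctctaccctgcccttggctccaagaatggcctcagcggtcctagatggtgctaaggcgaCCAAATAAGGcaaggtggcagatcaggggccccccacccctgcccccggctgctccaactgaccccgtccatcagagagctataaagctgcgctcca
Ckm: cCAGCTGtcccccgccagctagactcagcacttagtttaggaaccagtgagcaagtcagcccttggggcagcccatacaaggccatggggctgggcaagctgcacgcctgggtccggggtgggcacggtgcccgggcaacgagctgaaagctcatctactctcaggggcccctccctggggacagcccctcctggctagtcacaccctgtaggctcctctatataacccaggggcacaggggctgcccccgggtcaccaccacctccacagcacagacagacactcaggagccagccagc
Myoz2: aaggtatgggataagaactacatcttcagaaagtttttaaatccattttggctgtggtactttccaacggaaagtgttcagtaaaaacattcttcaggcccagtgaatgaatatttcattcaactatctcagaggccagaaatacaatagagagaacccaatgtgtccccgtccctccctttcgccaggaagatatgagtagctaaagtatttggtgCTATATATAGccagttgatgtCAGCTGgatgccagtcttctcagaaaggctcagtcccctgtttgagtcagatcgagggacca
Xirp2: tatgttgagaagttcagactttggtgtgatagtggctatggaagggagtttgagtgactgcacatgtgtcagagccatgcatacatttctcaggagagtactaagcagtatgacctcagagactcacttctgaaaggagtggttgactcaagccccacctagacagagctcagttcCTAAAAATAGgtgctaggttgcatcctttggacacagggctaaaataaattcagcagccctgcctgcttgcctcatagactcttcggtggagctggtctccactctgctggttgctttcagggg
The CArG box began 73 bases before the start in Acta1 and 47 before it in Actc1, the MEF2 match 33 before it in Myoz2 and 74 before it in Xirp2. CAGCTG began 221 bases before the start in Acta1, 249 in Ckm and 12 in Myoz2. The TATA motif TATAAA began 7 bases before the start in Acta1 but after the start in Actc1. All these distances are to the RefSeq start only, so they are not compared between genes. RefSeq promoters were at hand for 39 of the 49 genes, 45 promoters in all. CAGCTG was present in 42.2% of these, against 16.3% of all 32851 promoters of the same length. The MEF2 motif was present in 15.6% against 3.19%, and the CArG box in 11.1% against 1.63%. The muscle CAT motif CATTCC stood at 26.7% against 14.7%. The general E-box CANNTG, which includes CAGCTG, was found in 36 of the 45 against 72.3%, and the GC box GGGCGG in 33.3% against 35.7%, each searched on both strands. These are matches of letters, not binding sites, and no factor was measured here.

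Per kilobase of exon, the actins led. Skeletal actin (Acta1, chromosome 8, 123891769 to 123894751, mm10), the main actin of the adult thin filament, averaged 48832 scaled counts per kb over the 6 libraries. Cardiac actin (Actc1, chromosome 2, 114047282 to 114052887), which immature skeletal muscle also uses, averaged 29267. The fast regulatory myosin light chain (Mylpf) followed with 26414, beta-tropomyosin (Tpm2) with 10364 and desmin (Des), the intermediate filament of muscle, with 9344. At the other end of this scale stood the fast myosin-binding protein Mybpc2 (2.12), the intermediate filament protein synemin (Synm, 5.08), the skeletal muscle tropomodulin Tmod4 (6.99) and Myoz1 (14.4), a Z-disc protein that binds calcineurin. So the thin filament list holds both the highest level and one of the lowest. Acta1 and Actc1 have coding sequences that are 86.2% identical, and none of the 1085 windows of 50 bases of Acta1 occurs in Actc1.

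The spread over libraries was uneven within the set. Of the 45 members with a mean of at least 50 scaled counts, 15 (33.3%) had a highest library more than 1.5 times the lowest, against 7.56% of the 11027 genes at that level. The median ratio of highest to lowest was 1.41 for these members and 1.17 for those genes. Among members of at least 50, myotilin (Myot) varied most at 5.43-fold, followed by telethonin (Tcap) at 2.49-fold and Myoz2 at 2.25-fold. The M-band gene Obsl1 varied by 1.10-fold, Tpm3 by 1.11-fold and filamin C (Flnc) by 1.12-fold. By role the median ratio ran from 1.23 (intermediate filament and chaperone) to 1.64 (M-band). The map of deviations shows the libraries behind these ranges.

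**Figure D1:**
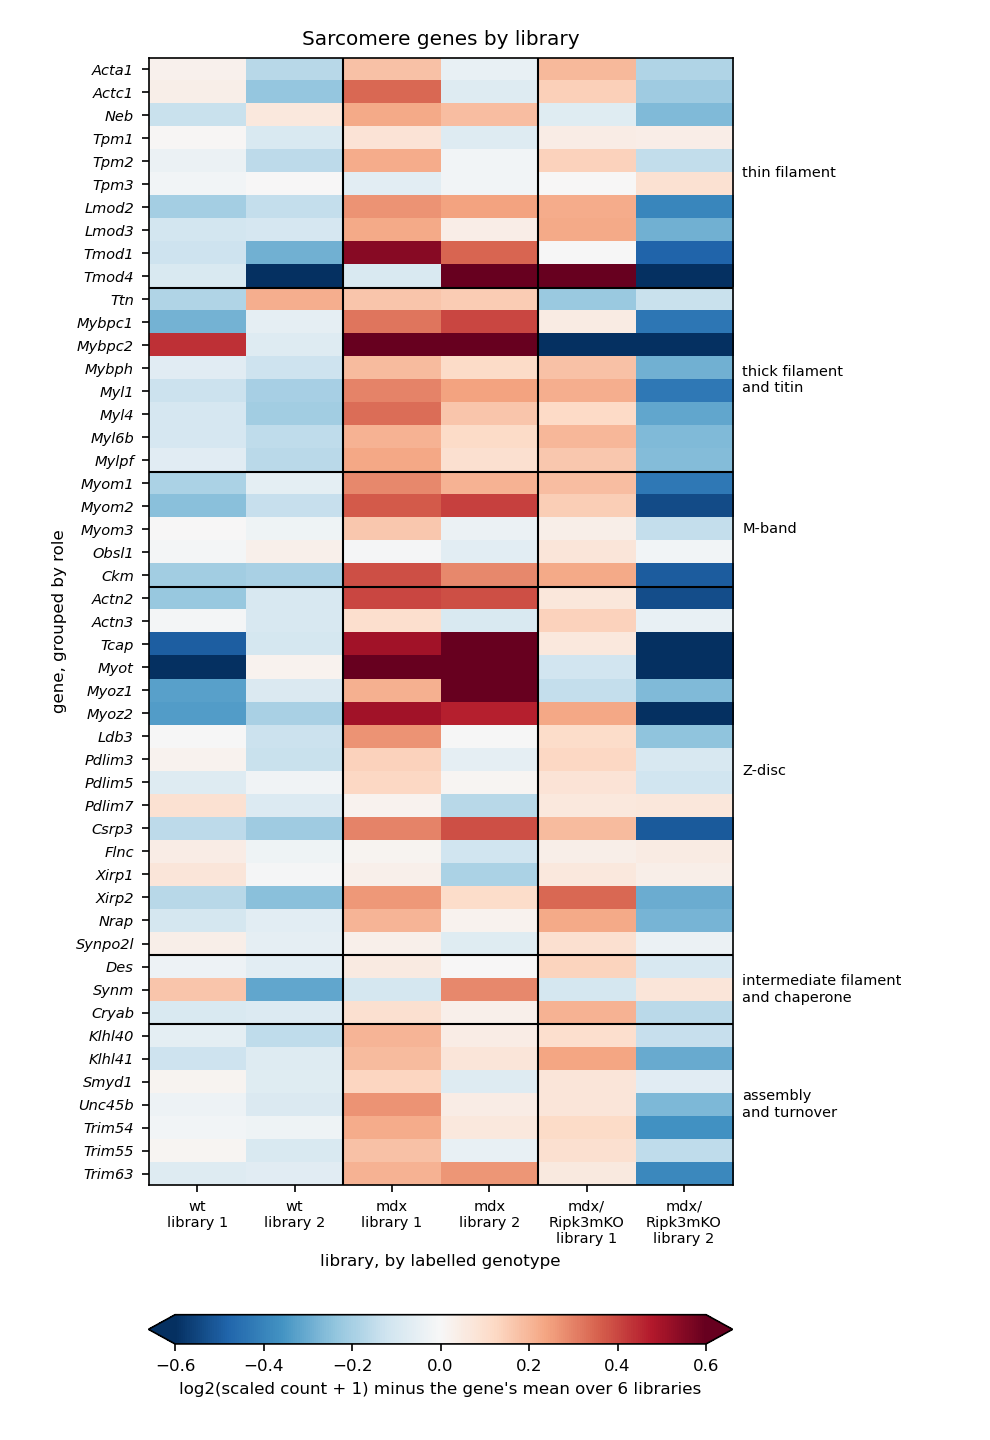
Each row is one of the 49 genes, grouped by role, and each column a library. Colour gives log2(scaled count + 1) minus the gene's mean over the 6 libraries, with colours saturating at 0.6 in either direction. The 2 mdx columns are mostly red, and library 2 labelled mdx/Ripk3mKO holds the lowest value of 31 of the 49 genes.

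The libraries labelled mdx were compared with those labelled wt to ask which sarcomere genes differ with the dystrophic label. Most members stood higher in mdx: 43 of 49 had a positive difference, with a median of 0.23 on the log2(scaled count + 1) scale, where the median over all 14077 genes tested was 0.00 and 49% were positive. The mdx libraries lay wholly above the wt libraries for 31 members and wholly below for 1, against 17.6% and 18.3% of all genes. Without Mybpc2 the positive members were 42 of 48 and those wholly above 30. None of the 49 passed an adjusted p of 0.05 in limma over all 6 libraries, where 0.0071% of all genes did. At an unadjusted p under 0.05 there were 6 members, all higher in mdx (3.44% of all genes were higher at that p): Tmod1, Neb, Klhl40, Tcap, Trim63 and Myoz1. Without wt library 1 there were 2. The smallest adjusted p of a member was 0.586 (limma, Tmod1). With 2 libraries against 2, an exact permutation test of a single gene cannot give less than 0.333.

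Among thin filament genes, 9 of 10 had a positive difference between mdx and wt (median 0.24). Tropomodulin 1 (Tmod1, ENSMUSG00000028328, chromosome 4, 46038935 to 46116032) caps the pointed end of the actin filament. It stood at 675 and 603 (wt), 1075 and 939 (mdx), and 734 and 527 scaled counts (mdx/Ripk3mKO). Both mdx libraries lay above the other 4, with a difference from wt of 0.65 ± 0.17 (moderated SE, as for all errors below unless SD is written; 95% interval 0.24 to 1.07; limma adjusted p = 0.586). Of its exon length, 32.6% overlaps Tstd2 on the opposite strand (mean 550 scaled counts), and the labels do not say whether reads were assigned by strand. In all, 18 of the 49 genes overlap exons of another gene, 17 of them one on the opposite strand, among them Mybph with Adora1 (49.9% of its exon length), Klhl40 with Gm47108 (21.6%) and Cryab with Hspb2 (17.0%). Nebulin (Neb, ENSMUSG00000026950, chromosome 2, 52136647 to 52338798) is the giant protein that runs along the thin filament. Its scaled counts were 30255 and 34630 (wt), 38827 and 37692 (mdx), and 31536 and 27612 (mdx/Ripk3mKO). Here too the mdx libraries were the highest 2, with 0.24 ± 0.08 over wt (interval 0.07 to 0.41; limma adjusted p = 0.601). The leiomodins, which nucleate thin filaments, were at 0.43 ± 0.24 (Lmod2) and 0.24 ± 0.21 (Lmod3).

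The abundant thin filament genes differed less between the labels. Acta1 was at 75901 and 66402 (wt), 84259 and 72354 (mdx), and 85379 and 65741 (mdx/Ripk3mKO). Its groups overlapped throughout, and the difference of mdx from wt was 0.14 ± 0.18 (interval -0.38 to 0.65). Actc1 stood at 48001 and 39888 (wt), 59532 and 44498 (mdx), and 51809 and 40394 (mdx/Ripk3mKO). As with Acta1, library 1 of each group was the higher one, and mdx overlapped wt. Tpm2 had 29295 and 26895 (wt), 34970 and 29667 (mdx), and 32979 and 27094 (mdx/Ripk3mKO), with mdx above wt by 0.20 ± 0.13. Other tropomyosins also serve the cytoskeleton of other cells. Tpm1 had 29655 and 27689 (wt), 31263 and 27968 (mdx), and 30414 and 30335 (mdx/Ripk3mKO), with a difference of mdx from wt of 0.05 ± 0.06 and overlapping groups. Tpm3 had 4538 and 4589 (wt), 4389 and 4531 (mdx), and 4586 and 4889 (mdx/Ripk3mKO), and at -0.03 ± 0.05 it was the 1 member whose mdx libraries both lay below wt. Tmod4 was too low to read, at 8 and 3 (wt), 8 and 34 (mdx), and 16 and 3 (mdx/Ripk3mKO).

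All 8 genes of the thick filament and titin had a positive difference in mdx against wt (median 0.35). Of these, 7 lay wholly above wt, where 17.6% of all genes did. Slow myosin-binding protein C (Mybpc1, ENSMUSG00000020061, chromosome 10, 88518279 to 88605152), which braces and tunes the thick filament, was at 6605 and 7737 (wt), 10024 and 10587 (mdx), and 8312 and 5945 (mdx/Ripk3mKO). Its mdx libraries were the highest 2, by 0.53 ± 0.20 over wt (interval -0.07 to 1.12). The light chains of myosin were at 0.44 ± 0.26 (Myl1, fast muscle), 0.40 ± 0.17 (Myl4, the embryonic and atrial form), 0.29 ± 0.16 (Myl6b) and 0.28 ± 0.17 (Mylpf). Titin (Ttn, chromosome 2, 76703980 to 76982547) had 59249 and 78075 (wt), 75398 and 74717 (mdx), and 57593 and 61273 scaled counts (mdx/Ripk3mKO). The 2 wt libraries lay on either side of mdx, so titin was the 1 gene of this list whose groups overlapped. Mybpc2 had 9 and 6 (wt), 11 and 15 (mdx), and 2 and 3 (mdx/Ripk3mKO), which orders the 3 labels without overlap but at a level of a few reads, and it was tested only because both mdx libraries reached 10. Without it the positive genes were 7 of 7 and the median 0.29.

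At the M-band, 4 of 5 genes had a positive difference (median 0.37). Myomesin 2 (Myom2), a crosslinker of thick filaments in fast fibres, was chosen for its values after they were seen, as were Ckm, Actn2, Myoz2 and Csrp3. It was at 5208 and 5641 (wt), 8016 and 8251 (mdx), and 6881 and 4272 (mdx/Ripk3mKO). The mdx libraries stood above all others, by 0.59 ± 0.27 over wt, and the 2 mdx/Ripk3mKO libraries lay on either side of wt. Creatine kinase M (Ckm), which regenerates ATP at the M-band, was at 1742 and 1754 (wt), 2631 and 2452 (mdx), and 2357 and 1420 (mdx/Ripk3mKO). Its mdx libraries were again the highest 2, by 0.54 ± 0.29 over wt, and mdx/Ripk3mKO lay on either side of wt. Myomesin 3 (Myom3) and Obsl1 were at 0.07 ± 0.07 and -0.05 ± 0.05, both overlapping. The ratio of Myom2 to Myom3 scaled counts, a pair picked after the values were seen, was 0.78 and 0.86 (wt), 1.07 and 1.27 (mdx), and 1.004 and 0.705 (mdx/Ripk3mKO).

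In the Z-disc list 12 of 16 genes had a positive difference between mdx and wt (median 0.20). Of the 16, 9 lay wholly above wt, where 17.6% of all genes did. Telethonin (Tcap, ENSMUSG00000007877, chromosome 11, 98383811 to 98384953) ties the ends of 2 titin molecules together. It was at 254 and 333 (wt), 508 and 573 (mdx), and 374 and 230 (mdx/Ripk3mKO). Both mdx libraries exceeded the other 4, by 0.89 ± 0.28 over wt (interval 0.13 to 1.65; limma adjusted p = 0.721). Myotilin (Myot, ENSMUSG00000024471, chromosome 18, 44334074 to 44355724), which binds alpha-actinin and filamin, had 84 and 132 (wt), 211 and 304 (mdx), and 120 and 56 (mdx/Ripk3mKO). It differed from wt by 1.26 ± 0.49 in mdx, with an interval of -0.11 to 2.62. Myoz1 was at 21 and 25 (wt), 31 and 41 (mdx), and 24 and 22 (mdx/Ripk3mKO), again highest in mdx, by 0.62 ± 0.29.

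Muscle alpha-actinin 2 (Actn2), the main crosslinker of the Z-disc in all fibre types, was at 5639 and 6171 (wt), 8729 and 8648 (mdx), and 6920 and 4575 (mdx/Ripk3mKO). Its mdx libraries again stood above the rest, by 0.56 ± 0.24 over wt. Actn3, the alpha-actinin of fast fibres, was at 11328 and 10686 (wt), 12256 and 10725 (mdx), and 12561 and 11073 (mdx/Ripk3mKO). All of its groups overlapped, and its difference of mdx from wt was 0.06 ± 0.08. The calcineurin-binding Myoz2 stood at 0.75 ± 0.35 and the muscle LIM protein Csrp3, a stretch-responsive adaptor, at 0.53 ± 0.25, without overlap. Of the 2 Xin proteins, Xirp2 was at 0.40 ± 0.25 and Xirp1 at -0.11 ± 0.06. Other genes with small differences were Flnc (-0.06 ± 0.05), which crosslinks actin at the Z-disc and the membrane, Synpo2l (-0.01 ± 0.06) and the PDZ-LIM proteins Pdlim3 (0.10 ± 0.09), Pdlim5 (0.12 ± 0.07) and Pdlim7 (-0.08 ± 0.07).

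Desmin (Des, chromosome 1, 75360329 to 75368579), which links neighbouring Z-discs, was at 34273 and 33484 (wt), 36363 and 35039 (mdx), and 38486 and 32809 (mdx/Ripk3mKO). It lay 0.08 ± 0.06 above wt in mdx, its chaperone alphaB-crystallin (Cryab) 0.15 ± 0.12 and Synm 0.16 ± 0.26. All 7 assembly and turnover genes had positive differences (median 0.22). Klhl40 (ENSMUSG00000074001, chromosome 9, 121777691 to 121783818), a Kelch protein that stabilises nebulin and leiomodin 3, was at 1034 and 969 (wt), 1244 and 1113 (mdx), and 1157 and 980 (mdx/Ripk3mKO). It was 0.23 ± 0.08 above wt in mdx (interval 0.05 to 0.41; limma adjusted p = 0.65). The ubiquitin ligase MuRF1 (Trim63, ENSMUSG00000028834, chromosome 4, 134315120 to 134329629), which marks sarcomere proteins for breakdown, had 534 and 538 (wt), 652 and 676 (mdx), and 587 and 430 (mdx/Ripk3mKO). Both mdx libraries were the highest, by 0.31 ± 0.12 over wt (limma adjusted p = 0.721). Its relatives MuRF2 (Trim55) and MuRF3 (Trim54) were at 0.11 ± 0.10 and 0.17 ± 0.15, the Kelch protein Klhl41 at 0.23 ± 0.21, the myosin chaperone Unc45b at 0.22 ± 0.13 and its partner methyltransferase Smyd1 at 0.05 ± 0.07.

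**Figure D2:**
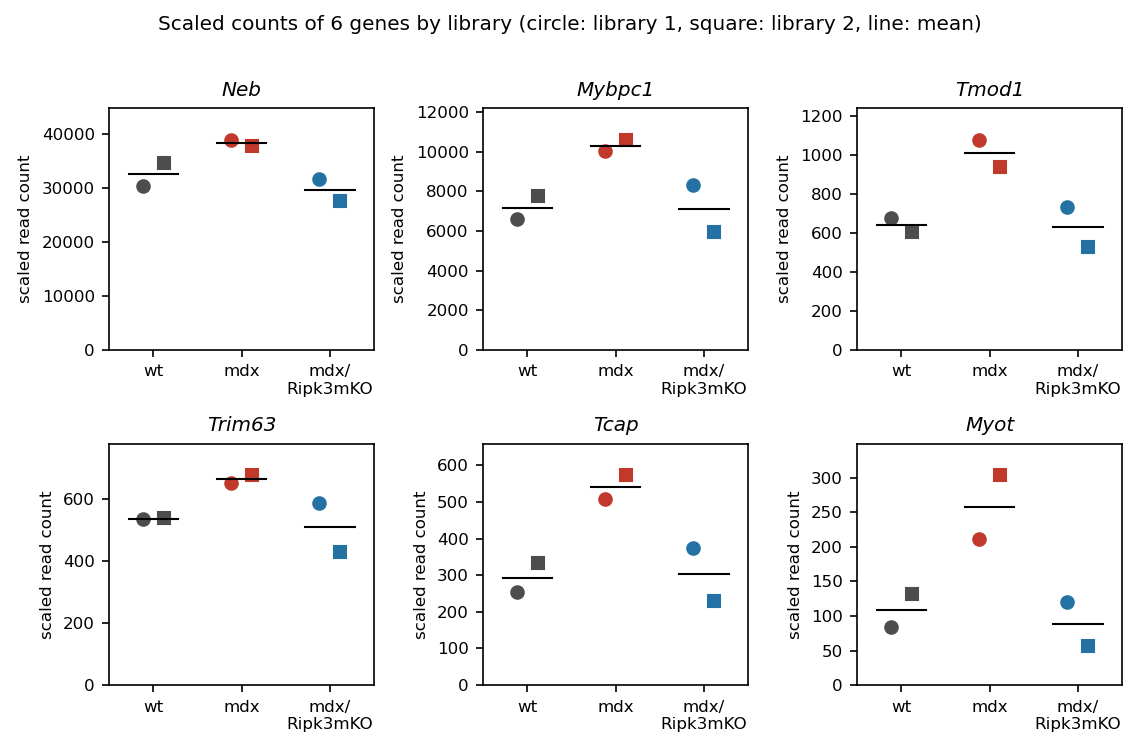
Scaled read counts of 6 genes in each library (vertical axes, starting at 0), by labelled genotype. Circles are library 1, squares library 2 and lines the mean of the group. In all 6 panels both mdx libraries lie above the other 4, and library 2 labelled mdx/Ripk3mKO is the lowest. The 6 were picked from the 8 members with the smallest unadjusted p in limma for mdx against wt, and Klhl40 and Myoz1 were left out. Those do not share the pattern in full. Klhl40 was lowest in wt library 2, and its mdx library 2 (1113) lay below mdx/Ripk3mKO library 1 (1157). Myoz1 was lowest in wt library 1 (21).

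Between mdx/Ripk3mKO and mdx the members stood lower in mdx/Ripk3mKO, in a comparison that uses the same mdx libraries as the one with wt. Of the 49, 41 had a negative difference (50.7% of all genes did), with a median of -0.19 against 0.00 over all genes. The mdx/Ripk3mKO libraries lay wholly below mdx for 18 members and wholly above for 4, against 20.3% and 21% of all genes. None passed an adjusted p of 0.05 in limma, where 0.206% of all genes did. At an unadjusted p under 0.05 there were 6, all lower (5.87% of all genes were lower at that p): Neb, Tmod1, Trim63, Myot, Tcap and Myoz1. Mybpc2 also had such a p (-2.00 ± 0.53, on 2 and 3 scaled counts), but it is left out of the 6 because it passed the filter only through mdx. Without it, 40 of 48 members were negative and 17 wholly below. Nebulin had the smallest adjusted p, 0.0987 in limma, with a difference of -0.37 ± 0.08 (interval -0.54 to -0.21). Tmod1 was at -0.69 ± 0.17 (limma adjusted p = 0.239), Trim63 at -0.40 ± 0.12 (limma adjusted p = 0.255) and Tcap at -0.88 ± 0.28 (limma adjusted p = 0.382).

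By role, the negative differences from mdx were found in 8 of 10 thin filament genes (median -0.17), 8 of 8 of the thick filament and titin (-0.34, and 7 of 7 without Mybpc2), 4 of 5 of the M-band (-0.37), 11 of 16 of the Z-disc (-0.15), 3 of 3 of the intermediate filament list (-0.04) and 7 of 7 of assembly and turnover (-0.16). Among the largest were Myot (-1.61 ± 0.49), Myoz2 (-0.70 ± 0.35), Actn2 (-0.63 ± 0.24) and Myom2 (-0.58 ± 0.27). Titin was at -0.34 ± 0.14, with both mdx/Ripk3mKO libraries below mdx. The 4 members wholly above mdx were Tpm3 (0.09 ± 0.05), Pdlim7 (0.14 ± 0.07), Flnc (0.09 ± 0.05) and Xirp1 (0.13 ± 0.06). Acta1 and Des were at -0.06 ± 0.18 and -0.01 ± 0.06.

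**Figure D3:**
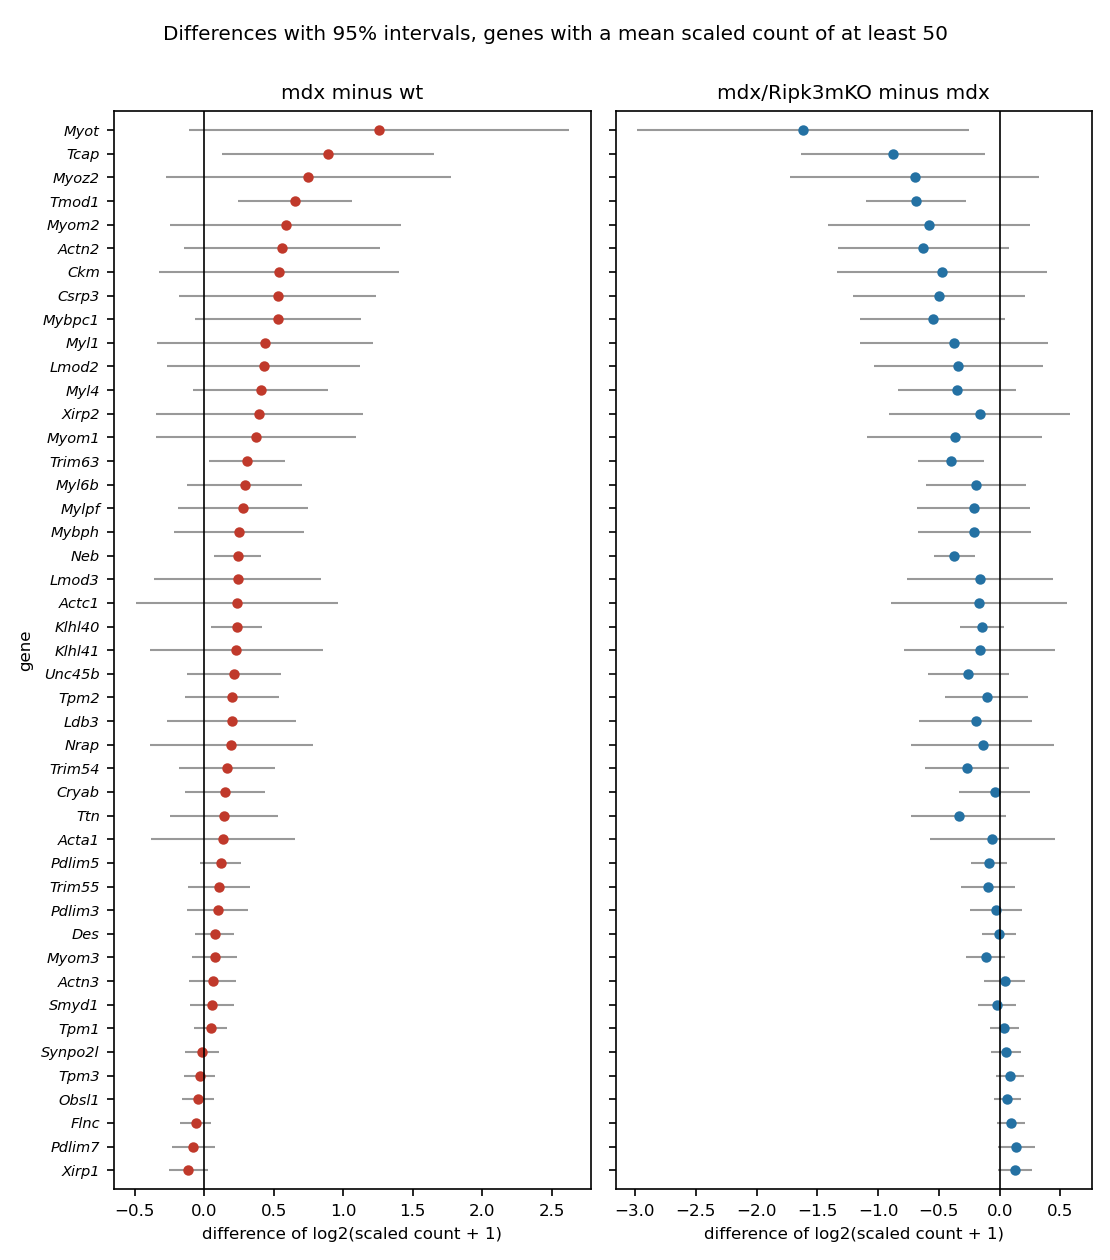
Differences of log2(scaled count + 1) for the 45 genes with a mean of at least 50 scaled counts, mdx minus wt on the left and mdx/Ripk3mKO minus mdx on the right. Points are limma estimates, lines their 95% intervals, and genes are ordered by the left panel. The panels share the mdx libraries, and 5 intervals on each side exclude 0, among them those of Tmod1, Neb, Tcap and Trim63 on both.

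The 2 mdx/Ripk3mKO libraries did not hold these genes at one level. Library 2 was below library 1 for 43 of the 49, with a median difference of -0.37, where the median over all genes was 0.00. In the other groups the same difference was -0.05 (wt, 29 of 49 lower in library 2) and -0.10 (mdx, 38 of 49). Library 2 labelled mdx/Ripk3mKO was the lowest of the 6 for 31 members (63.3%, against 16.3% of all genes), and mdx library 1 the highest for 24 (49%, against 17.8%). Between the mdx/Ripk3mKO libraries, Myot differed by -1.09, Myoz2 by -0.90, Ckm by -0.73, Tcap by -0.70 and Myom2 by -0.69, while Tpm1, Flnc and Pdlim7 differed by 0.00, 0.01 and 0.01. Neb differed by -0.19 and Ttn by 0.09. Library 1, the one that stands apart in Xist and Ddx3y, was thus also the higher of the pair in most sarcomere genes, and the part of that difference in the result was not tested.

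Leaving out either library shows how far the comparison rests on it. Without mdx/Ripk3mKO library 2 the median difference of the members from mdx was -0.02 and none was called, and 26 of 49 were negative. Without library 1 the median was -0.42 and 24 members of the 48 then tested were lower at an adjusted p under 0.05 in limma, where 1.7% of all genes were. That fit assumes that the lone library 2 varies like the wt and mdx libraries. The 24 comprised 4 thin filament genes (Lmod2, Lmod3, Neb, Tmod1), 6 of the thick filament, 3 of the M-band, 7 of the Z-disc and 4 of assembly and turnover (Klhl41, Trim54, Trim63, Unc45b). The difference of Myom2 from mdx was -0.93 without library 1 and -0.24 without library 2. For Tmod1 it was -0.93 and -0.45, and for Neb -0.47 and -0.28, so these stayed negative either way. Without library 1 and without library 2, in that order, Myot was at -2.16 and -1.07, Tcap at -1.23 and -0.53, Myoz2 at -1.15 and -0.25, Actn2 at -0.93 and -0.33, Mybpc1 at -0.79 and -0.31, and Trim63 at -0.63 and -0.18. All 6 were thus negative in both fits, and each was nearer 0 without library 2. Leaving out mdx library 1 brought the median to -0.12 and turned the sign in Acta1, Actc1, Tpm2, Des, Pdlim3, Smyd1 and Trim55. In Acta1, Actc1, Tpm2, Des, Mybph, Myl6b, Xirp2, Klhl41, Nrap, Lmod3, Cryab, Pdlim3, Pdlim5, Smyd1 and Trim55 the sign turned positive without mdx/Ripk3mKO library 2.

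The same spread enters the comparison of mdx with wt through the fit over 6 libraries. Fitted on the 4 wt and mdx libraries alone, limma called 16 of 48 members higher in mdx and none lower. Of all genes, 0.67% were called higher and 0.0721% lower. Among the 6 members at an unadjusted p under 0.05 over all 6 libraries, Tmod1 and Tcap were in the 16. Neb, Klhl40, Trim63 and Myoz1 were not, so which members stood out depended on the estimate of spread. Fold changes were those given above and the standard errors were smaller: for Tmod1 0.65 ± 0.08 (limma adjusted p = 0.0022), for Tcap 0.89 ± 0.12 (limma adjusted p = 0.00458), for Mybpc1 0.53 ± 0.07 (limma adjusted p = 0.00451). Myom2 and Actn2 shared the smallest adjusted p of a member, 0.000379 in limma, at 0.59 ± 0.05 and 0.56 ± 0.05. By role the 16 were 2 of 9 thin filament genes (Lmod2, Tmod1), 6 of 8 of the thick filament (Mybpc1, Mybph, Myl1, Myl4, Myl6b, Mylpf), 3 of 5 of the M-band (Ckm, Myom1, Myom2), 5 of 16 of the Z-disc (Actn2, Csrp3, Myoz2, Tcap, Xirp2), and none of 3 and of 7 in the other lists. Leaving out only mdx/Ripk3mKO library 1 gave 17 (Myot in addition, against 0.658% of all genes), and leaving out only library 2 gave 16 (against 0.664%). The median rested in part on mdx library 1: without it the median was 0.15, and 37 of 48 members were positive.

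Between mdx/Ripk3mKO and wt the members lay close together, with a median of 0.04 and 37 of 49 positive (50.5% of all genes were). None was called in limma, where 0% of all genes were. Mybpc2 alone had an unadjusted p under 0.05 and was lower, at -1.27 ± 0.53 (2.09% of all genes were lower at that p). Neb (-0.13 ± 0.08), Tpm1 (0.08 ± 0.06), Actn3 (0.10 ± 0.08), Ttn (-0.20 ± 0.14) and Des (0.07 ± 0.06) followed in order of p. Of these Tpm1 lay wholly above wt in mdx/Ripk3mKO, and the other 4 overlapped. The median was 0.20 without mdx/Ripk3mKO library 2, when Myl1, Lmod2, Ckm and Xirp2 were called higher in limma (0.0785% of all genes were), and -0.15 without library 1, with no call. Over the 3 labels at once, 6 of 49 members (5 without Mybpc2) had an unadjusted p under 0.05 in limma's F-test, against 7.87% of all genes, and none an adjusted p under 0.05, against 0.0781% (smallest adjusted p = 0.255).

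The other genes of the sarcomere, from a list that adds the myosin heavy chains, the troponins and further Z-disc and stress-response genes, had library medians near those of the members. Of 36 measured, 32 were positive in mdx against wt (median 0.26, none called) and 32 negative in mdx/Ripk3mKO against mdx (median -0.22). Among 18 non-muscle counterparts, such as beta-actin and alpha-actinin 1, 9 were positive in mdx against wt with a median of 0.00, and 11 were positive in mdx/Ripk3mKO against mdx with a median of 0.10. Of the differentiation markers, Myog, Mymk, Mymx, Myh3 and Tnnt3 together summed to 196896 and 194981 (wt), 237366 and 207153 (mdx), and 222530 and 174021 (mdx/Ripk3mKO). Most of this was Myh3 (110791 to 164134), a myosin heavy chain also counted among the other sarcomere genes. The median difference of the 5 was 0.02 in mdx against wt and -0.01 in mdx/Ripk3mKO against mdx. Their median deviation per library was 0.07 and -0.09 (wt), 0.11 and -0.09 (mdx), and 0.13 and -0.14 (mdx/Ripk3mKO). Among these differentiation markers, Myog itself was at -0.10 in mdx against wt and 0.17 in mdx/Ripk3mKO against mdx, neither called. The 5 stem cell and myoblast markers had a median of -0.05 in mdx against wt, with 2 higher and 3 lower. In mdx/Ripk3mKO against mdx their median was 0.11, with 3 higher and 2 lower (smallest adjusted p = 0.0528 in limma). The 4 markers of proliferating cells had medians of 0.00 and -0.04 in these comparisons. None of either list was called. The part of differentiating cells, myoblasts or proliferating cells in the sarcomere result was not tested. Of 8 smooth muscle and pericyte markers 5 were measured, with a median of 0.19 in mdx against wt and -0.18 in mdx/Ripk3mKO against mdx, none called. Pdgfrb, a receptor of pericytes and fibroblasts, was at 333 and 309 (wt), 409 and 444 (mdx), and 330 and 248 (mdx/Ripk3mKO). Rgs5 and Notch3 were also wholly higher in mdx than in wt, and all 3 had an unadjusted p under 0.05 there, while Acta2 and Tagln (29 to 43 scaled counts) overlapped. Per library, the median deviation of the 5 was -0.07 and -0.06 (wt), 0.22 and 0.25 (mdx), and 0.08 and -0.12 (mdx/Ripk3mKO), the sign of the members' own in each library. The part of these cells in the sarcomere result was not tested.

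**Figure D4:**
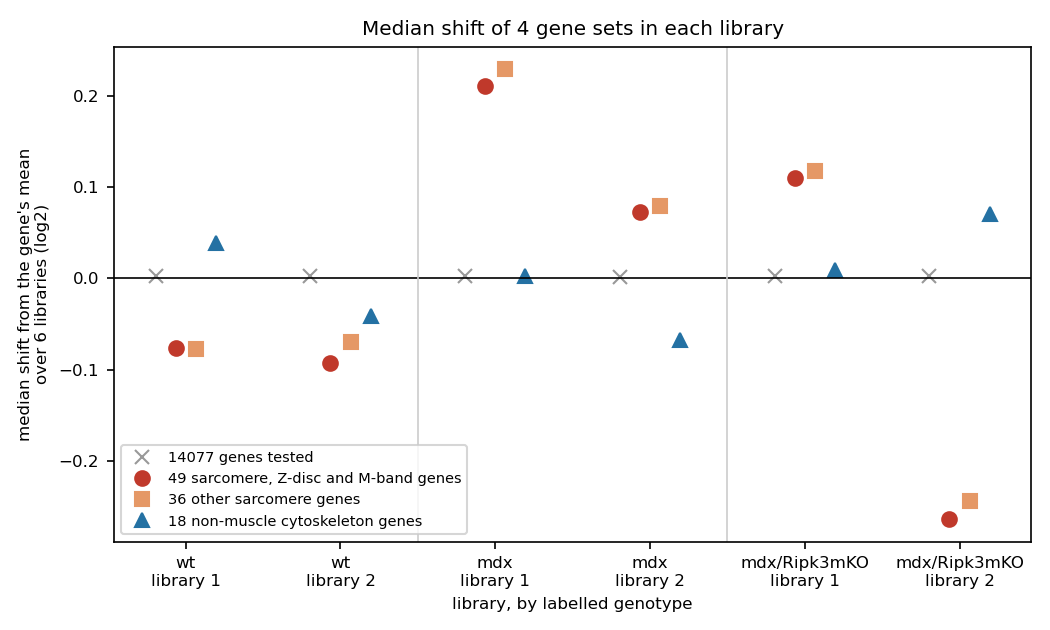
Median over each gene set of log2(scaled count + 1) minus the gene's own mean over 6 libraries, by library. The 49 members are at -0.08 and -0.09 (wt), 0.21 and 0.07 (mdx), and 0.11 and -0.26 (mdx/Ripk3mKO), the other sarcomere genes lie beside them, and all genes tested stay near 0.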

How the data were processed

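The deposited values are gene counts after a scaling by the authors and a rounding to integers, as the values themselves show, and were handled as a score, not as raw counts. Tools listed in the submitters' processing notes are, without their roles, Trimmomatic 0.36, STAR 2.6.1d, featureCounts 1.6.3 and DESeq2 1.18.1, with build mm10. Per the labels' protocols, libraries were made with a stranded kit for total RNA at low input.

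From these values log2(scaled count + 1) was computed and fitted with limma 3.58.1 in R 4.3.3 (statmod 1.5.0), 1 fit over 6 libraries with genotype as the only term, 3 residual degrees of freedom, and a variance trend with robust fitting. A gene entered the test if 2 or more libraries held 10 or more: 14077 did, 438 did not. P-values were adjusted by Benjamini-Hochberg over all genes tested, with a threshold of 0.05. Fold changes on this scale understate the change of low genes. The fit was also run on simulated data with the same dispersion in every gene and library. Those data lack the gap between the mdx/Ripk3mKO libraries, so the run cannot show how the fit handles it. Exon lengths came from GENCODE M21 (GRCm38, the same build as mm10), promoters from RefSeq. Role lists and lists of other genes, like the members, were chosen with earlier results of these data known. Values in every library are printed for the 8 members with the smallest unadjusted p in each of 3 comparisons and the 6 highest members. The alternatives were another pseudocount, other filters, quantile normalization, no trend or robust fitting, a correction for GC content and length, 2 groups alone, each library left out, and a replicate block. The numbers shared by the wt and mdx/Ripk3mKO libraries did not pair them: their deviations had r = -0.01 across genes. One result for a gene outside the 49 is not reported here.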

Additional observations from a re-analysis of the deposited data

How the results depend on the processing

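The number of libraries limits most statements: 2 a group, of unstated origin, and mdx/Ripk3mKO libraries that are unlike each other. For mdx against wt, the 1 gene called ranged from 0 to 103 and the members called from 0 to 17 over the fits without 1 library, members at an unadjusted p under 0.05 from 2 to 28 against 6, and their median from 0.15 to 0.29. On the 4 wt and mdx libraries alone, 103 genes and 16 members were called and 27 members had an unadjusted p under 0.05. The fold changes were the same there, and the estimated spread and the genes tested differed. The fits without 1 mdx/Ripk3mKO library take their spread from these same 4 libraries. Titin reversed to -0.057 without wt library 1 (0.341 without wt library 2). For mdx/Ripk3mKO against mdx, the 29 genes called became 18 at a mean of at least 50 or with the correction for GC content and length, 1 without trend and robust fitting, 2 on the 2 groups alone, and 1 to 278 over the fits without 1 library. Members called ranged there from 0 to 24, members at an unadjusted p under 0.05 from 6 to 35, and the median from -0.423 to -0.022. Negative differences turned positive without mdx library 1 or mdx/Ripk3mKO library 2, with ranges over the fits without 1 library of -0.248 to 0.129 (Acta1), -0.380 to 0.040 (Actc1), -0.122 to 0.109 (Des) and -0.250 to 0.034 (Tpm2). The same held for Pdlim3, Smyd1 and Trim55. Others did so without mdx/Ripk3mKO library 2 alone, with ranges of -0.437 to 0.024 (Mybph), -0.425 to 0.036 (Myl6b), -0.485 to 0.158 (Xirp2), -0.434 to 0.107 (Klhl41), -0.392 to 0.114 (Nrap) and -0.422 to 0.095 (Lmod3). Cryab and Pdlim5 were also among these. Des also reversed under quantile normalization (0.043). For mdx/Ripk3mKO against wt, genes called ranged from 0 to 20, members called from 0 to 4, members at an unadjusted p under 0.05 from 0 to 25, and the median from -0.15 to 0.20. Members at that p were 0 with a pseudocount of 5, at a mean of at least 50 and on the 2 groups alone. The lower end of these medians, without mdx/Ripk3mKO library 1, is a reversal, as in Des (-0.046 to 0.184), Klhl40 (-0.031 to 0.209), Myl1 (-0.263 to 0.385), Lmod2 (-0.222 to 0.396), Ckm (-0.300 to 0.431) and Xirp2 (-0.089 to 0.553). Titin ranged from -0.394 to 0.0038, the latter without wt library 2. Over the 3 genotypes at once, the 11 genes called became 1 at a mean of at least 50 or without trend and robust fitting, and 1 to 203 without 1 library. Where no construction of the fit shows it, the cause was not tested. With the replicate block for mdx/Ripk3mKO against wt, 0 members were called and their median stayed at 0.04. No paired analysis was possible because the mdx columns carry no replicate numbers of their own, for mdx against wt and mdx/Ripk3mKO against mdx.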
